A study of Mus musculus with 145 samples.

Results

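The 10 genes of the GDNF response and of spermatogonial stem cell (SSC) self-renewal were followed through the single-cell transcriptomes of mouse SSCs that turn into pluripotent stem cells in culture. They were *Gfra1*, *Ret*, *Etv5*, *Bcl6b*, *Lhx1*, *Id4*, *Zbtb16*, *Nanos2*, *Taf4b* and *Foxo1*, a fixed list chosen by name, and these 10 genes were all found among the 24501 genes with at least 1 unique molecular identifier (UMI, a tag that counts RNA molecules). All 10 passed the filter on low counts in the comparisons of cell classes, in which 20030 genes were tested, and in those of the SSC clusters, in which 14311 genes were tested.

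The SSCs came from the cross labelled C57BL/6[female] X DBA[male] and carried an *Oct4*-EGFP reporter. They were grown with EGF, bFGF, GDNF and ESGRO on mitotically inactive fibroblast feeders without passaging, and cells were picked from SSC-like and pluripotent colonies, so that the share of a class in a library also depends on the picking. The untreated culture was sampled from day 0 to day 27 in 46 libraries of modified STRT-seq, and the lines gPSC passage 1 and passage 15 (pluripotent cells derived from the SSCs, kept in N2B27 medium with 2iL) and F1 4-5 mESC (embryonic stem cells of the same cross) gave 1 library each. A second experiment measured RNA with scTrio-seq2 in 8 samples of cells treated with 5C (SGC707, vitamin C, EGCG, daphnetin and TUDCA) and in 5 samples treated with the solvent DMSO. The cells carried the authors' class names, namely the SSC clusters SSC1 to SSC4, the reprogramming clusters RPG1 to RPG4, and side branches named fibroblast, early-pluripotency, meiotic and neural. The methylomes of the series were not analysed here.

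GDNF is a ligand made by the somatic cells of the testis. It binds GFRA1, a co-receptor anchored in the membrane, and the pair engages RET, a receptor tyrosine kinase that signals through SRC-family kinases and the PI3K and AKT pathway. In cultured SSCs this signal is known to raise the transcription factor genes *Etv5*, *Bcl6b* and *Lhx1* and the gene of the inhibitor of differentiation *Id4*. *Zbtb16* (also known as PLZF, a zinc finger repressor), *Nanos2* (an RNA-binding protein), *Taf4b* (a germ cell subunit of the TFIID complex) and *Foxo1* (a forkhead factor) keep spermatogonia undifferentiated without being defined by a response to GDNF. *Etv5* is also known as a gene of embryonic stem cells.

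In the GRCm38 annotation *Gfra1* lies on the minus strand of chromosome 19 from 58235604 to 58455909, *Ret* on the minus strand of chromosome 6 from 118151745 to 118197718, and *Etv5* on the minus strand of chromosome 16 from 22381309 to 22439719. *Gfra1*, *Id4*, *Nanos2* and *Foxo1* each share exonic bases with an annotated gene on the opposite strand, and since the strand setting of the counting is not given in the sources used here, reads of these 4 genes and of their antisense partners cannot be told apart. RefSeq promoters (GRCm38.p6) were at hand for 6 of the 10 genes, as 7 sequences. The 250 bases before the start are shown for *Gfra1*, *Etv5* and *Lhx1*, 3 genes that followed different courses below: the receptor gene was low in RPG2 to RPG4, *Etv5* was high in RPG2 and RPG3, and *Lhx1* was high in RPG1. Capitals mark 2 motifs, the E-box CAGCTG and the forkhead core GTAAACA, searched on both strands.
Gfra1, chr19:58455399-58455648, minus strand: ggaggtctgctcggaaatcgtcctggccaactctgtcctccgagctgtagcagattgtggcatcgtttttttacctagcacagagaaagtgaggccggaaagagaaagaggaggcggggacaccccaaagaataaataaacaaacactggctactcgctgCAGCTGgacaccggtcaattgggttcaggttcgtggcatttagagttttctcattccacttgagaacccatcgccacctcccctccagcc
Etv5, chr16:22439571-22439820, minus strand: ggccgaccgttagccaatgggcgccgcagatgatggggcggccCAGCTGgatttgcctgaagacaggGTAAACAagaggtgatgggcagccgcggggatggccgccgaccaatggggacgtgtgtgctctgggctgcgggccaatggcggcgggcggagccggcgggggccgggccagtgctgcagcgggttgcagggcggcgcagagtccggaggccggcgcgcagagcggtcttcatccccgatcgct
Lhx1, chr11:84525535-84525784, minus strand: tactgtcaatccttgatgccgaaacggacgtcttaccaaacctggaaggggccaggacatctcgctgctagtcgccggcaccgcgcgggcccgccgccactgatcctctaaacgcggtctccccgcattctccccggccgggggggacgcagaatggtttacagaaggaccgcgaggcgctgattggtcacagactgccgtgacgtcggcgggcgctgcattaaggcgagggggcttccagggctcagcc
The starts used for the promoters are those of RefSeq and differ from the gene positions given above. The sequence shown for *Gfra1* lies inside the annotated gene, and that for *Etv5* overlaps it. The *Gfra1* promoter held CAGCTG 90 bases before the RefSeq start and was 52.4% G or C. The *Etv5* promoter shown, the more upstream of 2, was 71.2% G or C with 27 CpG dinucleotides, and it held CAGCTG 207 and GTAAACA 183 bases before the start. The other *Etv5* promoter (chr16:22438369-22438618) was 62.0% G or C with 18 CpG dinucleotides and held neither motif. The *Lhx1* promoter was 64.8% G or C with 26 CpG dinucleotides and held neither motif. CAGCTG occurred in 4271 and GTAAACA in 1040 (3.17%) of the 32851 RefSeq promoters of this length, and the ETS core CCGGAAG, which occurred in 6.91%, was in none of the 7. These matches describe letters and not bound sites.

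The 46 untreated libraries held 4339 annotated cells (87 to 96 each) and 15975410 to 34609591 UMIs per library, and the 3 libraries of the lines held 125 cells. The 5C samples held 724 cells and 5880774 to 10723044 UMIs each, and the DMSO samples 365 cells and 3888311 to 8059618 UMIs, over the genes that both tables list. The same 96 barcode numbers were used in all 49 STRT-seq libraries, so a cell was identified by library and barcode. UMIs were summed per library and class where at least 5 cells were present, and levels are given as CPM (UMIs of a gene per 1000000 UMIs) scaled by the trimmed mean of M values. Differences were tested with edgeR's quasi-likelihood test over all genes, and a gene is said to change at an adjusted p below 0.05. The labels do not say that libraries came from separate cultures, so the p-values measure the spread between libraries. The classes were drawn by the authors from these same transcriptomes, so the comparisons of classes describe the classes and are not independent evidence. A UMI count does not tell fewer expressing cells from less RNA per cell, for which shares of cells are given separately.

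The class names were set against marker genes, among them genes by which the authors named the clusters. In the paper *Zbtb16*, *Dazl* and *Dmrt1* stood for SSCs and *Pou5f1* (*Oct4*), *Nanog* and *Sox2* for pluripotent cells. The sums therefore describe the classes and are not an independent check of the names. The summed level of 5 germ cell markers (*Zbtb16* among them) was 1567 to 3177 CPM in SSC1-4 and 1670 to 1990 CPM in RPG1, and 103 to 474 CPM over the RPG2, RPG3 and RPG4 libraries. The sum of 6 pluripotency markers was 58.7 to 285 CPM in SSC1-4, 178 to 398 CPM in RPG1, 1481 to 2072 CPM in RPG2 and RPG3, and 624.8 to 789.8 CPM in RPG4. The fibroblast class carried 328 to 2888 CPM of 10 fibroblast and feeder markers, against 3.71 to 156 CPM in SSC1-4, yet its germ cell sum of 1513 to 1949 CPM overlapped with the range of SSC1-4. The meiotic class, at 1975 to 2378 CPM, and the neural class, at 1099 to 2498 CPM, also carried the germ cell markers. The 4 meiotic markers summed to 227 to 378 CPM in the meiotic class and 35.8 to 382 CPM in SSC1-4. The 4 neural markers summed to 0 to 115 CPM in the neural class and 0 to 28.3 CPM in SSC1-4. In the early-pluripotent class the 6 pluripotency markers summed to 89.8 to 203 CPM, inside the range of SSC1-4. These names are therefore used below as the authors' names for clusters rather than as cell types.

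In RPG3, 9 of the 10 genes were lower than in SSC1-4, and *Etv5* alone was higher. The loss was largest for *Zbtb16*, *Gfra1*, *Nanos2* and *Ret*, at 21.7-, 10.4-, 10.0- and 7.17-fold, while *Etv5* rose 3.82-fold. The authors used *Zbtb16* to name the SSC clusters, so its fall is not independent of the class names. Of the genes tested, 31.5% were called lower and 25.2% higher in this comparison, or 56.8% in all, so a call by itself is common here. The median log2 fold change was −2.07 over the 10 genes and −0.25 over all genes tested. The RPG comparisons share the 36 SSC1-4 libraries as their reference.

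For the receptor genes, the 36 SSC1-4 libraries spanned 0 to 55.2 CPM of *Gfra1* with a median of 26.3 CPM. The 8 RPG3 libraries spanned 0.502 to 8.38 CPM with a median of 1.43 CPM, the 3 RPG2 libraries gave 3.34, 1.09 and 1.33 CPM, and the 2 RPG4 libraries gave 1.198 and 1.155 CPM. Only 3 of 36 SSC1-4 libraries lay below the highest RPG3 library. *Gfra1* fell by 3.38 ± 0.43 (SE) on the log2 scale in RPG3 (adjusted p = 6.67e-11), by 3.75 ± 0.71 in RPG2 (adjusted p = 9.53e-06) and by 4.44 ± 0.93 in RPG4 (adjusted p = 9.64e-05). *Ret* spanned 2.72 to 195 CPM (median 104 CPM) in SSC1-4 and 6.39 to 27.05 CPM (median 11.1 CPM) in RPG3. It measured 17.5, 7.07 and 4.92 CPM in RPG2 and 10.4 and 18.5 CPM in RPG4. In RPG2, RPG3 and RPG4 alike, 2 of the 36 SSC1-4 libraries lay below the highest library of the class. *Ret* fell by 2.84 ± 0.30 on the log2 scale in RPG3 (adjusted p = 7.84e-14), by 3.31 ± 0.50 in RPG2 and by 2.71 ± 0.58 in RPG4. Both receptor genes were called lower in all 3 classes.

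Among the GDNF-responsive factor genes, *Etv5* did not follow the receptors. It measured 9.67 to 163 CPM (median 54.0 CPM) in SSC1-4, 208 to 347 CPM (median 252 CPM) in RPG3 and 217, 245 and 258 CPM in RPG2. All 8 RPG3 libraries and all 3 RPG2 libraries lay above the highest SSC1-4 library. The rise was 1.94 ± 0.25 on the log2 scale in RPG3 (adjusted p = 9.40e-11) and 1.78 ± 0.36 in RPG2 (adjusted p = 3.23e-05). Within the 2 libraries that held both RPG3 and SSC1-4 cells, the difference was 0.83 with the library as a block (adjusted p = 0.00066). In RPG4 the 2 libraries measured 145 and 156 CPM, inside the range of SSC1-4, and the log2 difference of 1.11 ± 0.46 was not called (adjusted p = 0.0632). It was called with relative log expression size factors (1.25, adjusted p = 0.0315).

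*Bcl6b*, a zinc finger repressor of the BCL6 family, measured 6.14 to 270 CPM (median 33.4 CPM) in SSC1-4 and 2.08 to 36.6 CPM (median 15.2 CPM) in RPG3. These ranges overlapped, with 19 of 36 SSC1-4 libraries below the highest RPG3 library, and the fall of 1.63 ± 0.46 on the log2 scale had an adjusted p of 0.00176. With sums per batch and day it was not called (−0.91, adjusted p = 0.197). In RPG2 the libraries gave 35.6, 3.81 and 4.54 CPM, and a log2 difference of −1.70 ± 0.73 was not called (adjusted p = 0.0579), whereas the library block gave −2.91 (adjusted p = 0.0104) over 2 libraries with both classes. It was also called without day 12 replicate 2 (−3.49, adjusted p = 0.00512), with at least 10 cells per sum (−3.36, adjusted p = 0.00218) and with DESeq2 (−1.69, adjusted p = 0.0241). In RPG4 *Bcl6b* fell by 2.63 ± 0.97 on the log2 scale (adjusted p = 0.0319). That call was lost without day 20 replicate 1 (−2.14, adjusted p = 0.304), without day 20 replicate 2 (−3.57, adjusted p = 0.113) and with at least 10 cells per sum (−2.002, adjusted p = 0.215).

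*Lhx1*, a LIM homeobox factor gene, was high in RPG1 and low in RPG2 and RPG3. It measured 1.24 to 123 CPM (median 51.1 CPM) in SSC1-4, 102 to 198 CPM (median 138 CPM) in RPG1, 5.01, 2.17 and 2.08 CPM in RPG2, 1.72 to 52.2 CPM (median 3.80 CPM) in RPG3, and 30.4 and 71.8 CPM in RPG4. It rose by 1.58 ± 0.36 on the log2 scale in RPG1 (adjusted p = 0.00276), fell by 4.00 ± 0.88 in RPG2 (adjusted p = 0.000137), fell by 2.28 ± 0.47 in RPG3 (adjusted p = 2.66e-05), and differed by 0.08 ± 0.72 in RPG4 (adjusted p = 0.945). Tested directly, *Lhx1* was 5.12-fold higher in RPG4 than in RPG3 (log2 2.36 ± 0.72, adjusted p = 0.0232), the 1 gene of the 10 called in that comparison, in which 8.93% of genes were called. In day 20 replicate 1 *Lhx1* measured 3.31 CPM in RPG3 and 30.4 CPM in RPG4, and in day 20 replicate 2 it measured 7.69 and 71.8 CPM. With these 2 libraries as a block, an alternative chosen after seeing the data, the difference was 3.296 ± 0.611 (adjusted p = 0.000119). Without day 20 replicate 2 it was 1.596 and not called (adjusted p = 0.498). The RPG3 library of day 20 replicate 8 held the 52.2 CPM, and the other 7 held 1.72 to 9.87 CPM. The RPG4 class rested on 21 cells in 2 day 20 libraries.

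*Id4* measured 0 to 44.6 CPM (median 14.5 CPM) in SSC1-4 and 1.65 to 9.15 CPM (median 3.38 CPM) in RPG3, a fall of 1.85 ± 0.48 on the log2 scale (adjusted p = 0.000719). With the library as a block the difference was −1.002 and was not called (adjusted p = 0.511), nor was it with sums per batch and day (−1.49, adjusted p = 0.0546). In RPG2 *Id4* gave 20.88, 12.503 and 2.272 CPM, with a log2 difference of −0.40 ± 0.66 (adjusted p = 0.635), and in RPG4 the log2 difference of −2.23 ± 0.96 was not called (adjusted p = 0.0724). With DESeq2 *Id4* was called lower in RPG4 (−2.12, adjusted p = 0.0209). The 2 RPG4 libraries gave 0 and 6.16 CPM, and with only the library at 0 left the log2 difference was −10.8.

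**Figure D1:**
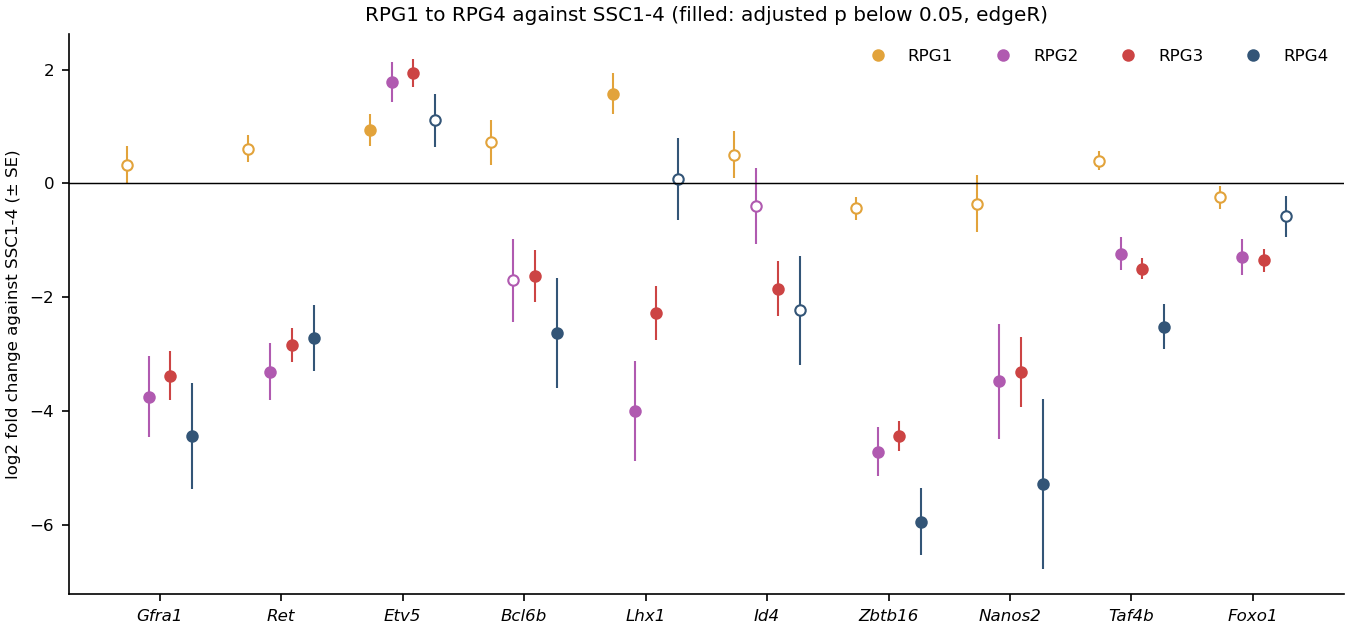
Log2 fold change of each of the 10 genes (x axis) in RPG1, RPG2, RPG3 and RPG4 against SSC1-4, with bars for the standard error and filled points for an adjusted p below 0.05 (edgeR). *Etv5* lies above 0 in all 4 classes and is filled in 3, *Lhx1* is above 0 in RPG1 and far below it in RPG2, and *Gfra1*, *Ret*, *Zbtb16*, *Nanos2* and *Taf4b* are filled and below 0 in RPG2, RPG3 and RPG4.

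The genes that maintain the undifferentiated state were called lower in RPG2 and RPG3. *Zbtb16* measured 70.4 to 270 CPM (median 107 CPM) in SSC1-4, 2.11 to 14.3 CPM (median 4.26 CPM) in RPG3, 7.24, 2.45 and 3.22 CPM in RPG2, and 1.598 and 1.926 CPM in RPG4. Every library of these 3 classes lay below the lowest SSC1-4 library, in a gene that the authors used to name the SSC clusters. *Zbtb16* fell by 4.44 ± 0.26 on the log2 scale in RPG3 (adjusted p = 2.79e-27), by 4.72 ± 0.43 in RPG2 and by 5.95 ± 0.59 in RPG4. *Nanos2* spanned 0 to 51.7 CPM (median 8.74 CPM) in SSC1-4 and 0 to 4.22 CPM (median 0.751 CPM) in RPG3, a fall of 3.32 ± 0.62 on the log2 scale (adjusted p = 3.39e-06). In RPG2 it measured 2.51, 0.544 and 0 CPM and fell by 3.48 ± 1.01 (adjusted p = 0.00408). That call was lost with sums per batch and day (adjusted p = 0.0696) and without day 14 replicate 6 (adjusted p = 0.051). In RPG4 *Nanos2* had 2 UMIs of 7484721, against 6119 of 586219537 in SSC1-4, a level 39.1-fold lower with a 95% counting interval of 10.8 to 323. Its call was lost without either RPG4 library (adjusted p = 0.0528 and 0.119).

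*Taf4b* measured 28.8 to 127 CPM (median 65.5 CPM) in SSC1-4, 18.4 to 34.6 CPM (median 22.7 CPM) in RPG3, 29.79, 27.997 and 26.51 CPM in RPG2, and 10.4 and 12.8 CPM in RPG4. It fell by 1.501 ± 0.185 on the log2 scale in RPG3 (adjusted p = 2.98e-11), by 1.24 ± 0.28 in RPG2 (adjusted p = 0.00026, but 0.0582 with the library as a block and 0.136 with sums per batch and day) and by 2.52 ± 0.39 in RPG4. *Foxo1* measured 39.7 to 202 CPM (median 98.1 CPM) in SSC1-4, 19.5 to 66.6 CPM (median 36.5 CPM) in RPG3 and 54.0, 20.1 and 55.1 CPM in RPG2, which overlapped with the lower SSC1-4 libraries. It fell by 1.35 ± 0.20 on the log2 scale in RPG3 (adjusted p = 1.31e-08) and by 1.29 ± 0.32 in RPG2. In RPG4 *Foxo1* measured 73.9 and 68.0 CPM, with a log2 difference of −0.58 ± 0.36 that was not called (adjusted p = 0.236). With sums per batch and day it was called (−1.23, adjusted p = 0.0129).

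In counts of genes, 7 of the 10 fell and 1 rose in RPG2, where 18.5% and 17.5% of all genes did, with a median log2 fold change of −2.51 over the 10 genes and −0.52 over all. In RPG4, 6 fell and 0 rose (15.1% and 12.6% of all genes, 27.7% in all), with medians of −2.58 and −0.54. None of the 10 was called different between RPG2 and RPG3 with edgeR, with 2 at an unadjusted p below 0.05, where 5.98% of all genes were called. All RPG2 cells in these sums came from batch B2 and all RPG4 cells from batch B1, and only 44 cells in 3 libraries stood behind RPG2. Within batch B1 all 10 genes were called in RPG3, where 9541 of 19783 genes tested were, and within batch B2 8 were, without *Bcl6b* and *Nanos2*, where 4775 of 17033 were.

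**Figure D2:**
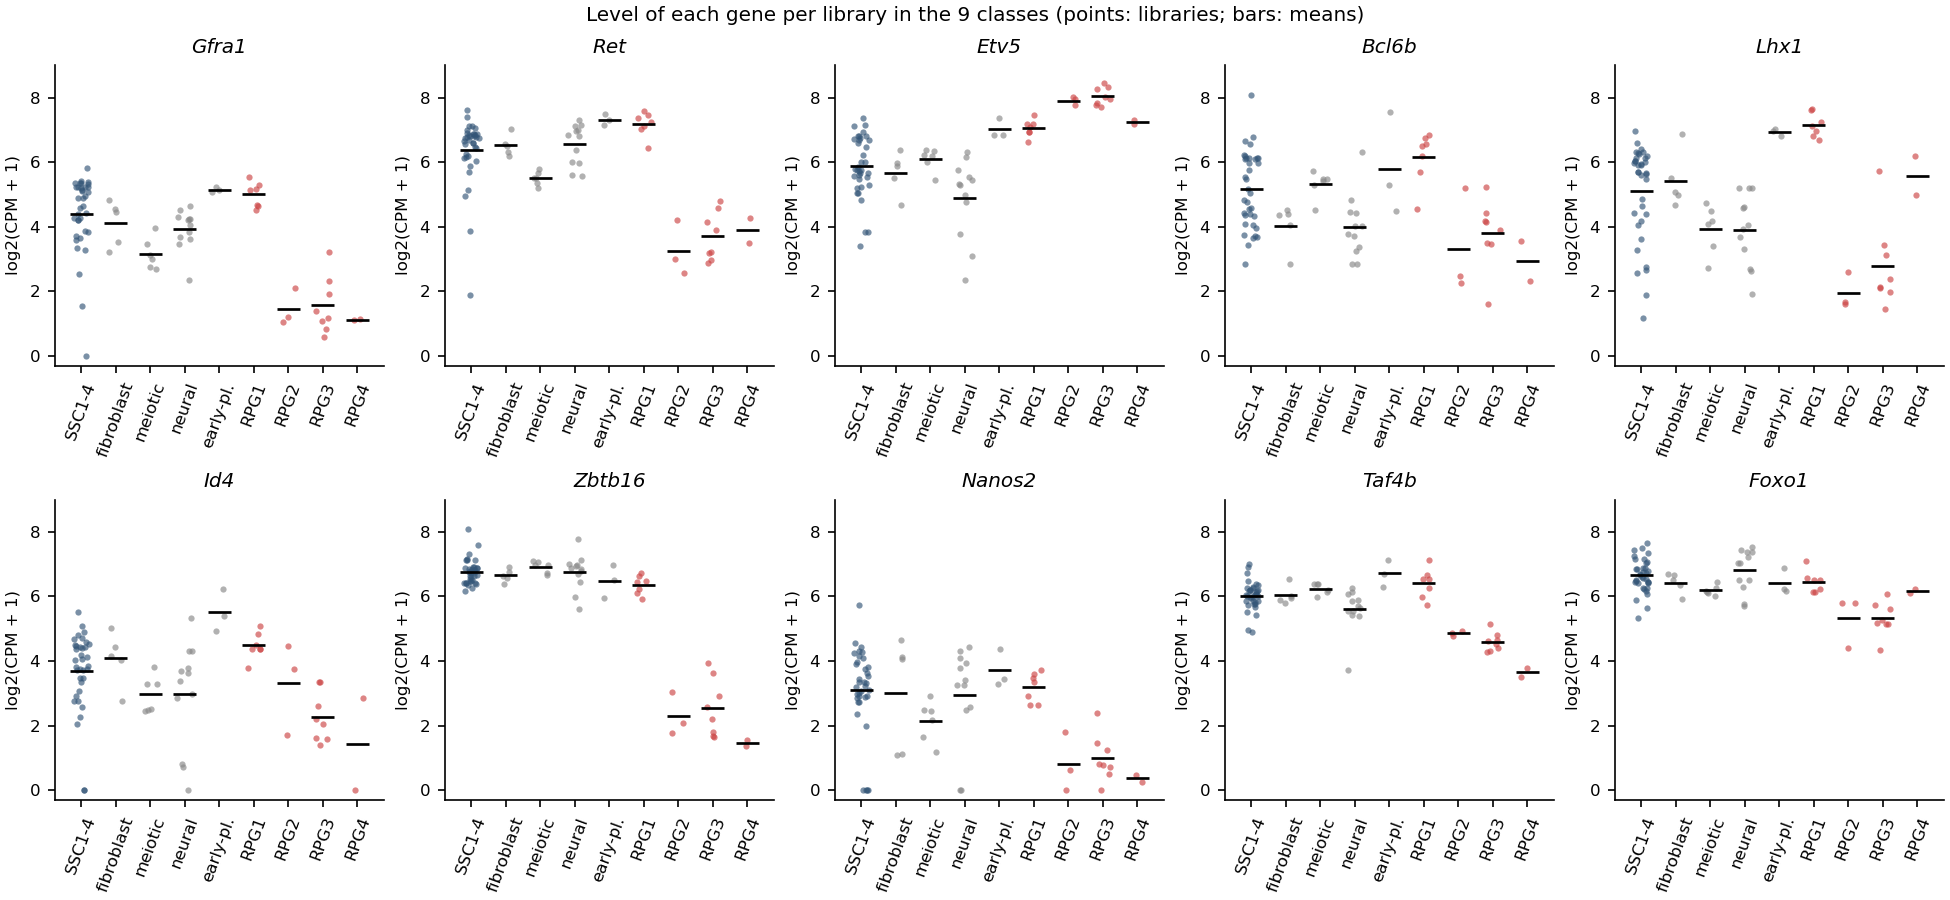
Level of each gene in log2(CPM + 1) per library (points) in the 9 classes, with bars for the mean over libraries (blue for SSC1-4, red for RPG1 to RPG4, grey for the side branches). *Etv5* is highest in RPG2 and RPG3, where *Gfra1*, *Ret*, *Zbtb16*, *Nanos2* and *Taf4b* are low.

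In RPG1, 8 of the 10 genes were not called, of which *Taf4b* was called higher with at least 10 cells per sum (0.48, adjusted p = 0.0143). The 7 RPG1 libraries measured 21.9 to 45.9 CPM of *Gfra1*, 85.2 to 189 CPM of *Ret*, 60.1 to 104 CPM of *Zbtb16* and 5.19 to 12.2 CPM of *Nanos2*, all overlapping with SSC1-4. The other 2 were called, both higher, where 2.58% of all genes were called higher and 2.03% lower (4.61% in all): *Lhx1*, given above, and *Etv5*. *Etv5* measured 98.4 to 173 CPM (median 134 CPM) in RPG1 and rose by 0.94 ± 0.27 on the log2 scale (adjusted p = 0.0288). That call was not kept within libraries, since the 2 libraries with both classes gave 0.05 with the library as a block (adjusted p = 0.998), while *Lhx1* gave 1.32 there (adjusted p = 0.028). Within batches the *Etv5* difference was 0.93 in B1 (adjusted p = 0.13) and 1.24 in B2 (adjusted p = 0.161), and that of *Lhx1* was 1.71 in B1 (adjusted p = 0.0127) and 1.197 in B2 (adjusted p = 0.454). With sums per batch and day neither was called (adjusted p = 0.188 for *Etv5* and 0.0663 for *Lhx1*). In RPG1, 5 of the 7 libraries lay above the highest SSC1-4 library in *Lhx1*. The median log2 fold change in RPG1 was 0.45 over the 10 genes and −0.05 over all genes tested.

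The step from RPG1 to RPG3 was compared after the data had been seen, because 7 libraries held both classes. In each of these 7 libraries *Gfra1*, *Ret*, *Bcl6b*, *Lhx1*, *Id4*, *Zbtb16*, *Nanos2*, *Taf4b* and *Foxo1* were lower in RPG3 and *Etv5* was higher. The ranges over the libraries did not overlap for any of the 10 genes, and the share of all genes that separated so was not counted. *Gfra1* spanned 21.9 to 45.9 CPM in RPG1 and 0.502 to 8.38 CPM in RPG3, *Lhx1* 102 to 198 and 1.72 to 52.2 CPM, and *Etv5* 98.4 to 173 and 208 to 347 CPM. The ranges lay closest for *Foxo1*, at 69.4 to 136 and 19.5 to 66.6 CPM, and for *Bcl6b*, at 22.3 to 114 and 2.08 to 20.3 CPM. Against RPG1, 9 of the 10 genes fell in RPG3 and 1 rose, where 41.6% of all genes were called. The falls were 4.00 ± 0.28 for *Zbtb16*, 3.86 ± 0.57 for *Lhx1* and 3.70 ± 0.48 for *Gfra1* on the log2 scale, and *Etv5* rose by 0.999 ± 0.372 (adjusted p = 0.0248). With the 7 libraries as a block all 10 calls were kept, and *Etv5* rose by 0.95 ± 0.09 (adjusted p = 1.56e-07).

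The share of cells with a UMI described the same classes cell by cell. Cells were thinned to 50000 UMIs each, which left out 165 of 2265 SSC1-4 cells and 7 of 261 RPG3 cells. *Gfra1* was then seen in 42.9% of SSC1-4 cells, 52.2% of RPG1 cells and 8.66% of RPG3 cells (59.3%, 71.8% and 28.4% before thinning). *Zbtb16* was seen in 87.3%, 74.4% and 17.3% of these cells (94.0%, 88.9% and 56.7% before thinning), and *Ret* in 86.9%, 97.1% and 32.7% (94.1%, 97.9% and 78.2%).

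Free RNA can leave a UMI in a cell that does not express a gene. In the embryonic stem cells, a separate library with a median of 321636 UMIs per cell before thinning against 285699 in RPG3 cells, none of 43 thinned cells had a UMI of *Gfra1*, *Ret*, *Lhx1* or *Zbtb16*, with a 95% upper bound of 8.20% (Wilson). That library does not measure the free RNA of the libraries that held RPG3 cells, so how much of the RPG3 shares was background was not tested. *Etv5* was seen in 70.5% of SSC1-4 cells, 95.5% of RPG1 cells and all thinned RPG3 and embryonic stem cells (80.3%, 98.2%, 100% and 100% before thinning). *Lhx1* was seen in 75.6% of RPG1 cells, 17.3% of RPG3 cells and 30.3% of 33 RPG4 cells (87.4%, 51.0% and 69.7% before thinning).

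Among the SSC clusters, the mean levels of *Gfra1*, *Ret*, *Etv5*, *Bcl6b* and *Lhx1* were lowest in SSC1 and highest in SSC4, and that of *Foxo1* was highest in SSC1. Each cluster was tested against the other 3. In SSC1 (28 libraries) 7 of the 10 genes were lower and 2 higher, where 10.0% and 11.5% of all genes were called (21.6% in all). In SSC2 (23 libraries) 1 was lower and none higher, where 3.71% and 5.51% of all genes were (9.22% in all). In SSC3 (18 libraries) 3 were lower and 3 higher, where 7.15% and 6.20% were (13.3% in all). In SSC4 (16 libraries) 5 of the 10 were higher and none lower, where 6.88% and 7.23% were (14.1% in all). SSC1 cells were shallower, with a median of 149268 UMIs per cell against 281650 to 378770 in SSC2, SSC3 and SSC4, and had more mitochondrial reads, at 1.21% against 0.734% to 0.869%, and the part of these 2 measures in the differences was not tested.

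*Etv5* averaged 41.1 ± 24.7 CPM in SSC1, 53.7 ± 33.9 in SSC2, 103 ± 21.04 in SSC3 and 128 ± 24.8 in SSC4 (SD; n = 28, 23, 18 and 16 libraries). It fell by 1.13 ± 0.17 on the log2 scale in SSC1 (adjusted p = 9.43e-08) and by 0.59 ± 0.17 in SSC2 (adjusted p = 0.017), and rose by 0.65 ± 0.17 in SSC3 (adjusted p = 0.00526) and by 1.08 ± 0.18 in SSC4 (adjusted p = 2.35e-06). The SSC2 call was lost with at least 10 cells per sum (−0.43, adjusted p = 0.113), and with the library as a block the differences in SSC1 to SSC4 were −0.62, −0.36, 0.32 and 0.65, all called (adjusted p = 0.0242 in SSC2 and 0.0401 in SSC3). In thinned cells it was seen in 43.9% of SSC1 cells and 94.6% of SSC4 cells (57.2% and 99.1% before thinning).

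*Bcl6b* averaged 20.1 ± 15.1, 34.3 ± 33.7, 58.7 ± 21.5 and 85.5 ± 20.9 CPM in SSC1 to SSC4. It fell by 1.47 ± 0.21 on the log2 scale in SSC1 and rose by 1.33 ± 0.21 in SSC4 (adjusted p = 5.65e-07). The smaller rise in SSC3 (0.59 ± 0.21, adjusted p = 0.0417) was not called with batch as a covariate (adjusted p = 0.0565), with at least 10 cells per sum (adjusted p = 0.0803) or with the library as a block (adjusted p = 0.292). *Lhx1* averaged 24.5 ± 32.98, 40.0 ± 26.6, 83.3 ± 64.4 and 87.9 ± 32.2 CPM, and it fell by 1.29 ± 0.25 in SSC1 and rose by 0.86 ± 0.25 in SSC3 and by 0.98 ± 0.26 in SSC4. The spread between libraries was wide in SSC3, and the SSC3 rise of *Lhx1* was not called with at least 10 cells per sum (0.64, adjusted p = 0.104). In SSC2 *Lhx1* was not called in the main edgeR fit (−0.54, adjusted p = 0.184) but was called lower with the library as a block (−0.65, adjusted p = 0.0487).

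Both receptor genes rose in SSC4, *Gfra1* by 0.89 ± 0.23 on the log2 scale (adjusted p = 0.00292) and *Ret* by 0.57 ± 0.13 (adjusted p = 0.00112). *Gfra1* averaged 18.2 ± 15.7 CPM in SSC1 and 43.7 ± 9.67 CPM in SSC4, and *Ret* averaged 78.8 ± 32.1 and 145 ± 31.5 CPM. With the library as a block the fall of *Gfra1* in SSC1 was no longer called (−0.37, adjusted p = 0.258) and the 5 calls in SSC4 remained. *Foxo1* averaged 133 ± 68.4 CPM in SSC1 and 76.7 ± 31.8 CPM in SSC3, and it rose by 0.57 ± 0.12 in SSC1 (adjusted p = 8.06e-05) and fell by 0.50 ± 0.14 in SSC3 (adjusted p = 0.00667, and 0.102 with at least 10 cells per sum). *Zbtb16* rose in SSC1 by 0.26 ± 0.10 (adjusted p = 0.0407) and fell in SSC3 by 0.33 ± 0.11 (adjusted p = 0.039), and neither was called with the library as a block (adjusted p = 0.353 and 0.152) or with relative log expression size factors (adjusted p = 0.0681 and 0.0612). *Nanos2* fell in SSC3 by 1.07 ± 0.35 (adjusted p = 0.0251), from 10.6 to 12.7 CPM in the other 3 clusters to 5.74 CPM. *Id4* fell in SSC1 by 0.87 ± 0.24 and *Taf4b* by 0.47 ± 0.12, and *Taf4b*, not called in SSC3 (adjusted p = 0.0752), was called higher there with the library as a block (0.43, adjusted p = 0.00296) and with DESeq2 (0.35, adjusted p = 0.0309).

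**Figure D3:**
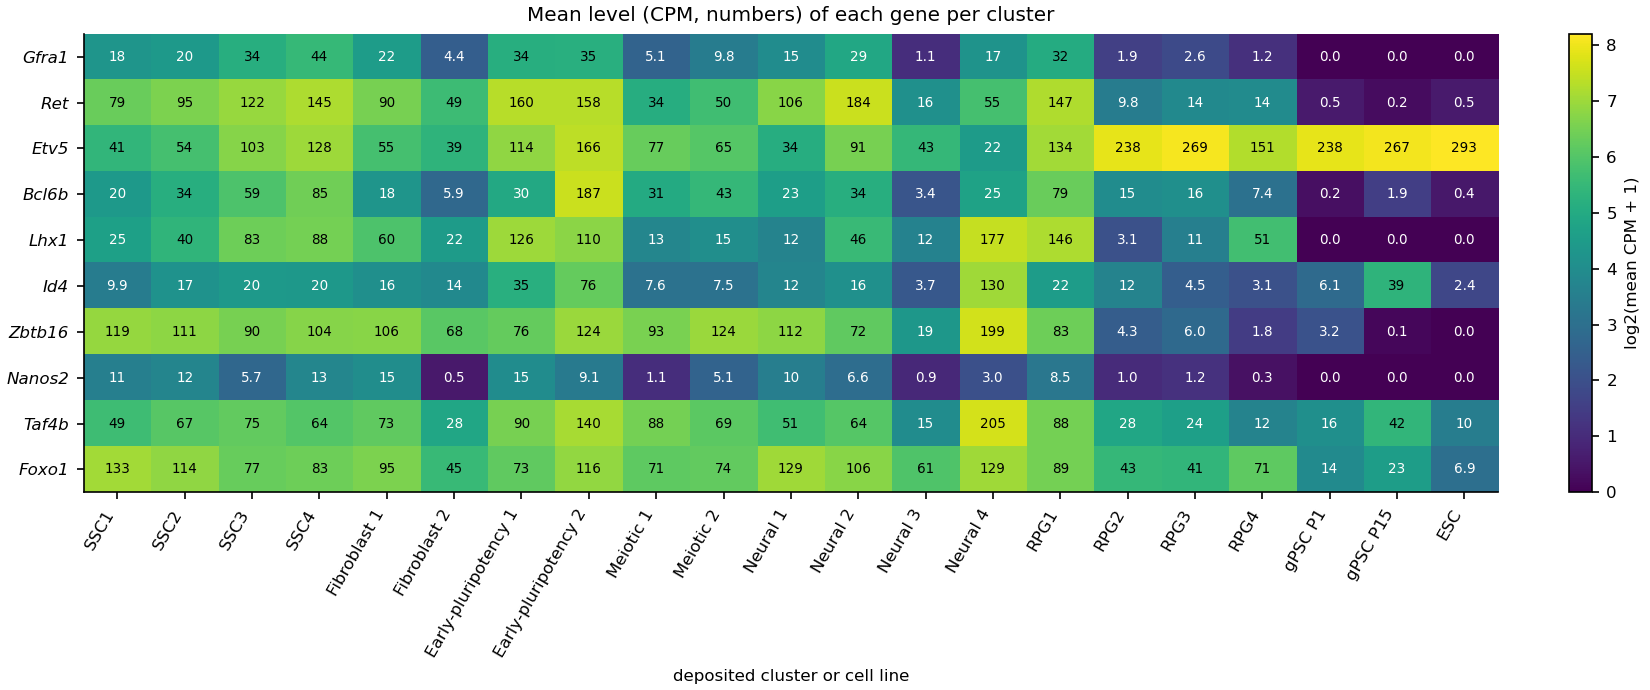
Mean level over libraries of each gene (rows) in the 18 clusters and 3 lines (columns), with the colour in log2(mean CPM + 1) and the CPM printed in each cell. *Etv5* grows from SSC1 to SSC4 and is highest in RPG2, RPG3 and the lines, where *Gfra1* and *Nanos2* average 2.58 CPM or less.

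By day of culture, the SSC1-4 cells had their highest *Etv5* at days 20 and 23. *Etv5* averaged 105 ± 11.2 CPM at day 20 (88.1 to 122 CPM, n = 7) and 127 ± 23.7 CPM at day 23 (103 to 163 CPM, n = 6), against 51.9 ± 14.5 at day 14 (n = 6), 45.9 ± 6.53 at day 16 (n = 5), 34.5 ± 14.3 at day 18 (n = 5) and 44.8 ± 15.2 at day 27 (n = 3). Every day 20 and day 23 library lay above every library of the other days. *Bcl6b* averaged 64.9 ± 6.46 and 84.9 ± 18.2 CPM at days 20 and 23 and between 11.9 and 34.6 CPM at days 0, 10, 12, 14, 18 and 27. At day 16 it averaged 87.1 ± 104.5 CPM, where 1 of the 5 libraries reached 270 CPM. *Lhx1* was highest in the 1 library of day 10, at 123 CPM. It averaged 68.7 ± 16.04 and 68.0 ± 13.2 CPM at days 20 and 23, 64.2 CPM in the 1 library of day 0, 55.0 ± 8.19 CPM at day 14 and 15.3 to 24.2 CPM at days 12, 16, 18 and 27. *Foxo1* averaged 92.6 ± 10.6 and 80.3 ± 11.9 CPM at days 20 and 23, with a lower mean at day 16 (67.3 ± 26.7 CPM), 95.3 to 107 CPM at days 0, 10 and 14, and higher means at day 12 (159.96 ± 27.7 CPM, n = 2), day 18 (143 ± 22.8 CPM) and day 27 (163 ± 35.9 CPM). Day was not tested, since the mix of SSC clusters and the batch changed with it: all day 20, 23 and 27 SSC1-4 libraries were of batch B1. *Gfra1* and *Ret* had their lowest values, 0 and 2.72 CPM, in day 16 sums of 7 and 8 cells, and the 270 CPM of *Bcl6b* also came from 8 cells.

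**Figure D4:**
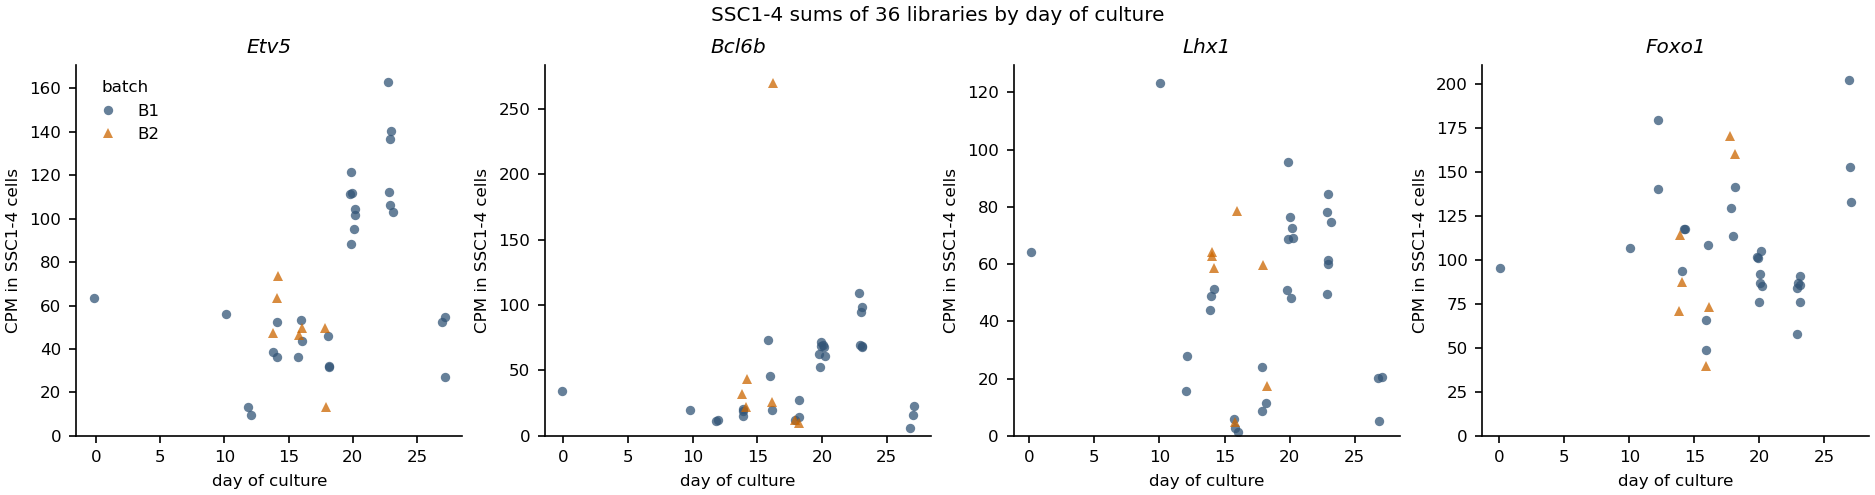
Level in CPM of *Etv5*, *Bcl6b*, *Lhx1* and *Foxo1* in the SSC1-4 cells of 36 libraries (points, by batch) against the day of culture, with points moved slightly sideways to separate them. *Etv5* lies between 88.1 and 163 CPM at days 20 and 23 and at 73.6 CPM or less on the other days, whereas *Foxo1* is highest at days 12, 18 and 27.

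In the side branches, none, 2 or 3 of these genes were called per class. With edgeR, none of the 10 was called in the fibroblast class, with 1 at an unadjusted p below 0.05, and none in the early-pluripotent class, with 5 at an unadjusted p below 0.05, where 5.63% and 1.29% of all genes were called. The fibroblast class pools 2 clusters with different mean levels. Fibroblast 1 (4 libraries) measured 22.03 ± 8.69 CPM of *Gfra1*, 15.1 ± 9.73 CPM of *Nanos2* and 72.8 ± 24.7 CPM of *Taf4b*. Fibroblast 2 (3 libraries) measured 4.44 ± 3.72, 0.486 ± 0.589 and 27.9 ± 28.5 CPM. All early-pluripotent sums came from batch B2 and all fibroblast sums from batch B1. In the 3 early-pluripotent libraries *Lhx1* measured 110, 123 and 129 CPM and *Id4* 29.5, 41.4 and 74.3 CPM, with log2 differences of 1.31 ± 0.52 (adjusted p = 0.211) and 1.63 ± 0.53 (adjusted p = 0.107). *Lhx1* was called there with the library as a block (1.81, adjusted p = 0.00112), *Id4* with at least 10 cells per sum (adjusted p = 0.0116) and with only the 2 classes in the fit (adjusted p = 0.0367), and *Taf4b* with at least 10 cells per sum (0.77, adjusted p = 0.0065).

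In the meiotic class 2 of the 10 fell, where 0.764% of all genes fell and 1.10% rose (1.86% in all). *Gfra1* measured 5.43 to 14.7 CPM (median 7.31 CPM, n = 6) and fell by 1.61 ± 0.41 on the log2 scale (adjusted p = 0.0172), and *Ret* measured 35.9 to 53.7 CPM (median 44.8 CPM) and fell by 1.10 ± 0.29 (adjusted p = 0.0239). Both turned around with the library as a block, to 0.61 (adjusted p = 0.88) and 0.88 (adjusted p = 0.631) over 5 libraries with both classes. Neither was called with sums per batch and day or within batch B2. *Lhx1* (−1.62 ± 0.497, adjusted p = 0.0661) and *Nanos2* (−1.54 ± 0.59, adjusted p = 0.16) were called lower in the meiotic class with DESeq2 and with at least 10 cells per sum. In the neural class 3 of the 10 fell, where 4.97% of all genes fell and 5.77% rose (10.7% in all): *Etv5* by 0.88 ± 0.26 (adjusted p = 0.0157), *Bcl6b* (log2 difference −1.3003 ± 0.378, adjusted p = 0.0156) and *Lhx1* by 1.40 ± 0.37 (adjusted p = 0.00666), the last not called with the library as a block (−1.4986, adjusted p = 0.12). With sums per batch and day none of the 3 was called (adjusted p = 0.167 for *Etv5*, 0.235 for *Bcl6b* and 0.521 for *Lhx1*, the last at −0.58), and *Etv5* was not called with at least 10 cells per sum (adjusted p = 0.102) or with only the 2 classes in the fit (adjusted p = 0.0599).

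The neural clusters differed among themselves. Neural 4, whose 29 cells had a median of 65379 UMIs and were pooled over libraries of batches B1 and B2 into 1 sum, measured 177 CPM of *Lhx1*, 130 CPM of *Id4*, 205 CPM of *Taf4b* and 199 CPM of *Zbtb16*, the highest mean among the 18 clusters for each of the 4. Neural 3 (2 libraries) measured 1.10 CPM of *Gfra1*, 16.2 CPM of *Ret* and 19.2 CPM of *Zbtb16*. Early-pluripotency 2 (1 library) had the highest *Bcl6b*, at 187 CPM. When the clusters with 2 or more libraries were ordered by level, 0 to 2 of the 15 neighbouring pairs per gene were apart by more than their SDs, so most neighbours in the order did not differ beyond their spread.

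The pluripotent lines had 1 library each, so no test was made. *Etv5* measured 204 CPM (95% Poisson interval 196 to 211) in gPSC passage 1, 253 CPM (243 to 262) in gPSC passage 15 and 265 CPM (257 to 273) in the embryonic stem cells, here without trimmed-mean scaling. *Gfra1*, *Lhx1* and *Nanos2* had 0 UMIs in all 3 lines, a limit of 0.214, 0.277 and 0.203 CPM for the 3 lines in that order (3 counts of the total). *Ret* had 6, 2 and 7 UMIs and *Zbtb16* 38, 1 and 0 UMIs. *Id4* was at 5.20, 36.9 and 2.16 CPM, *Taf4b* at 13.5, 39.3 and 9.12 CPM, *Foxo1* at 12.1, 21.6 and 6.28 CPM, and *Bcl6b* at 0.214, 1.75 and 0.405 CPM, so that passage 15 held the highest value of the 3 lines for these 4 genes. The intervals cover counting error only.

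Over the 18 clusters, the gene whose mean log2 level was most like that of *Gfra1* among 21040 genes was its partner *Ret* (Pearson r = 0.967), and the gene most like *Etv5* was the related factor gene *Etv4* (r = 0.911). The nearest genes were *Akap11* for *Zbtb16* (r = 0.978), *Dnah1* for *Taf4b* (r = 0.968), *Itgb3* for *Id4* (r = 0.954), *Mcam* for *Bcl6b* (r = 0.935), *Rbks* for *Nanos2* (r = 0.930), *Epb41l5* for *Foxo1* (r = 0.902) and *Tox3* for *Lhx1* (r = 0.899). These are descriptions over clusters that share libraries. Among single SSC1-4 cells within a library (25 libraries of at least 30 cells, 1959 cells), the median correlation was 0.24 for *Etv5* with *Bcl6b* (positive in 22 libraries), 0.23 for *Etv5* with *Gfra1* (24 libraries) and 0.22 for *Etv5* with *Lhx1* (24 libraries). The lowest were −0.11 for *Etv5* with *Foxo1* (positive in 5 libraries) and −0.09 for *Lhx1* with *Foxo1* (3 libraries), and all are weak values in sparse counts.

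The rest of the pathway was read from lists fixed by name. Of 10 other GDNF-regulated genes, 6 fell and 2 rose in RPG3, where 31.5% and 25.2% of all genes did, with a median log2 fold change of −2.05 against −0.25 over all genes tested. The surface protein gene *Tspan8* fell by 2.92 ± 0.50 on the log2 scale, the cyclin gene *Ccnd2* by 2.77 ± 0.22 and the early growth response gene *Egr2* by 2.54 ± 0.42, while *Mycn* rose by 1.88 ± 0.14 and *Etv4* by 0.91 ± 0.32. In RPG1 1 of the 10 fell (*Mycn*, by 0.78 ± 0.18) and 2 rose (*Egr3* by 2.93 ± 0.86 and *Pou3f1* by 0.92 ± 0.22), where 2.03% and 2.58% of all genes did, with a median of 0.45. In RPG2 5 fell and 2 rose, against 18.5% and 17.5% of all genes, and in RPG4 4 fell and 1 rose (*Mycn*, by 1.48 ± 0.26), against 15.1% and 12.6%. Between the SSC clusters the same list had 6 of 9 lower and 1 higher in SSC1 (median −1.23), where 10.0% and 11.5% of all genes were, and 1 lower and 5 higher in SSC4 (median 0.85), where 7.23% and 6.88% were. In SSC2 4 were lower and 1 higher (median −0.41), where 3.71% and 5.51% of all genes were. In SSC3 1 was lower and 5 were higher (median 0.96), where 7.15% and 6.20% of all genes were. The T-box gene *T* fell by 2.28 ± 0.39 in SSC1 and rose by 2.94 ± 0.33 in SSC4, and *Egr2* fell by 1.803 ± 0.202 and rose by 1.71 ± 0.19.

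Of 7 other ligands and receptors of the GDNF family that were tested, 2 fell and 3 rose in RPG3 (median 0.32). The shares of all genes lower and higher in RPG3, 31.5% and 25.2%, also stand against this list and the 3 that follow. The artemin co-receptor gene *Gfra3* fell by 3.89 ± 0.57 on the log2 scale there and by 3.09 ± 0.55 in RPG1, and in RPG4 it had 0 UMIs, at least 29.7-fold lower than in SSC1-4 against a limit of 3 counts over the class. *Pspn*, the ligand persephin, was called higher in RPG3 (3.61 ± 0.94) at 0 to 3.47 CPM with a median of 0. Among 19 kinases and adaptors that act after RET, 4 fell and 7 rose in RPG3 (median 0.28). None was called in RPG1 with edgeR (median 0.12), where 4.61% of all genes were called. The adaptor gene *Dok5* fell by 3.74 ± 0.54 and the kinase gene *Lyn* rose by 4.503 ± 0.909 in RPG3. Among 10 other genes of undifferentiated spermatogonia, 4 fell and 4 rose in RPG3 (median −0.36), with *Pax7* at 2 UMIs in RPG3 against 1318 in SSC1-4 (85.8-fold lower, 95% counting interval 23.7 to 709) and the adhesion gene *Cdh1* higher by 5.23 ± 0.33. Of the 7 genes tied to FOXO1, which include *Ret* and *Lhx1*, 3 fell and 4 rose in RPG3 (median 0.89), *Pdk1* by 1.204 ± 0.123.

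For the same lists in the other RPG classes, the called genes with the largest changes were as follows. In RPG1 the cadherin gene *Cdh1* rose by 1.305 ± 0.380 and *Pax7* fell by 3.46 ± 1.06 on the log2 scale. There 3 of the 10 genes of undifferentiated spermatogonia fell, 1 rose and 6 were not called, where 4.61% of all genes were called. Of the same 10 genes 4 fell and 3 rose in RPG2, against 18.5% and 17.5% of all genes. In RPG4 0 fell and 6 rose (median 1.27), against 15.1% and 12.6% of all genes. In RPG2 *Gfra3* fell by 4.90 ± 1.01, *Dok5* by 2.66 ± 0.80 and *Egr2* by 3.19 ± 0.72. The adaptor gene *Grb2* rose there by 1.35 ± 0.30, *Etv4* by 1.68 ± 0.44, *Cdh1* by 4.42 ± 0.41 and *Sall4* by 1.46 ± 0.16. *Pdx1* had 0 UMIs in RPG2 against 1913 in SSC1-4. *Pspn* was the 1 gene of the GDNF family list called higher in RPG2. In RPG4 *Tspan8* fell by 4.82 ± 1.19 and *Dok5* by 2.54 ± 0.97. *Cdh1* rose there by 5.53 ± 0.44, *Shc1* by 1.22 ± 0.25 and the forkhead factor gene *Foxo4* by 2.004 ± 0.655.

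The 5C experiment asked how a cocktail of small molecules given during reprogramming changed the cells. The 5C samples were taken at days 12, 14 and 16 and the DMSO samples at days 0, 20 and 24, so treatment and day cannot be told apart. DMSO samples 1, 2 and 3 were of day 20 and sample 4 of day 24. Sample 5 held day 24 cells and the 8 cells of day 0. The cell names of DMSO samples 1 and 2 begin alike, as do those of the day 24 cells in samples 4 and 5. The labels do not say that these samples came from separate cultures. DMSO samples 1 and 2 stood apart, since 74 of 88 and 66 of 90 of their cells were predicted to be RPG3, whereas DMSO samples 3, 4 and 5 held no cell of that class. The comparison was therefore made over all cells and separately over the cells that the authors' classifier placed in SSC1-4 (8 against 3 samples) and in RPG3 (6 against 2 samples).

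In SSC1-4-predicted cells, 5 of the 10 genes were higher with 5C and none was lower, where 10.7% and 10.6% of all genes were called (21.2% in all), with a median log2 fold change of 0.78 over the 10 genes and 0.02 over all. *Lhx1* measured 76.2 to 282 CPM (median 138 CPM) in the 8 5C samples and 5.46, 6.80 and 3.36 CPM in the 3 DMSO samples. *Etv5* measured 138 to 284 CPM (median 209 CPM) with 5C and 44.3, 5.10 and 6.71 CPM with DMSO. *Bcl6b* measured 33.99 to 168 CPM (median 72.0 CPM) with 5C and 17.2, 11.9 and 22.8 CPM with DMSO. *Id4* measured 56.1 to 85.6 CPM (median 73.1 CPM) with 5C and 24.6, 17.3 and 20.8 CPM with DMSO. In these 4 genes every 5C sample lay above every DMSO sample. The share of all genes that separated by treatment in this way was not counted. The rises were 4.83 ± 0.41 for *Lhx1* (adjusted p = 1.95e-08), 3.35 ± 0.42 for *Etv5* (adjusted p = 3.48e-06), 2.26 ± 0.38 for *Bcl6b* (adjusted p = 0.000128) and 1.78 ± 0.24 for *Id4* (adjusted p = 9.76e-06) on the log2 scale.

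*Taf4b* rose by 0.65 ± 0.21 (adjusted p = 0.0299), with 66.3 to 118 CPM against 51.3, 89.8 and 56.4 CPM, which overlap. The call was lost without DMSO sample 3 (adjusted p = 0.175) and without DMSO sample 5 (adjusted p = 0.169). The receptor genes were not called: *Gfra1* differed by 0.92 ± 0.71 on the log2 scale (adjusted p = 0.392) and *Ret* by 0.24 ± 0.18 (adjusted p = 0.389). *Zbtb16* differed by 0.01 ± 0.22 (adjusted p = 0.974), *Nanos2* by −0.11 ± 0.70 (adjusted p = 0.934) and *Foxo1* by −0.36 ± 0.15 (adjusted p = 0.0891). All 8 5C samples lay below the 3 DMSO samples in *Foxo1*, at 139 to 199 CPM against 237, 207 and 209 CPM, and DESeq2 called it lower (adjusted p = 0.0392).

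The mix of SSC clusters differed between the treatments, with 57.7% SSC1 and 12.9% SSC4 cells with 5C and 78.0% and 1.89% with DMSO. When only SSC1-predicted cells were used, an alternative chosen after seeing the data, *Lhx1* rose by 5.57, *Etv5* by 3.47, *Bcl6b* by 2.08 and *Id4* by 1.69 on the log2 scale and were called, and *Taf4b* was not (0.70, adjusted p = 0.154). The 5 markers of differentiating spermatogonia summed to 240 to 436 CPM with 5C and 447 to 491 CPM with DMSO, 5 germ cell markers to 1914 to 2644 and 2714 to 2823 CPM, 4 meiotic markers to 28.7 to 79.1 and 97.7 to 106 CPM, and 10 fibroblast and feeder markers to 5.84 to 20.8 and 30.4 to 59.5 CPM. The part of these markers in the results was not tested.

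Of 8 other GDNF-regulated genes tested in the same cells, 6 were higher and 1 lower, where 10.7% and 10.6% of all genes were, with a median log2 fold change of 1.69 against 0.02 over all genes tested. *T* rose by 4.27 ± 0.91, *Ccnd2* by 2.64 ± 0.26, *Egr2* by 2.57 ± 0.39, *Etv4* by 2.44 ± 0.35, *Pou3f1* by 0.94 ± 0.19 and *Mycn* by 0.73 ± 0.24, and the syndecan gene *Sdc4* fell by 0.92 ± 0.14 on the log2 scale. Among the tested GDNF family genes *Gfra3* fell by 3.64 ± 0.94. Of 18 kinases and adaptors, 1 was called, the adaptor gene *Shc1*, higher by 1.31 ± 0.24 (list median 0.28), where 21.2% of all genes were called. Of 7 other genes of undifferentiated spermatogonia, 3 fell and 0 rose (median 0.13). *Upp1*, a uridine phosphorylase gene, fell by 3.66 ± 0.32, the SOX factor gene *Sox3* by 2.57 ± 0.43 and the RNA-binding protein gene *Lin28a* by 0.77 ± 0.20. Of the 7 genes tied to FOXO1, *Lhx1* rose and *Foxo3* fell by 1.31 ± 0.26 (median 0.29).

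In RPG3-predicted cells *Etv5* did not follow. It measured 161 to 269 CPM (median 240 CPM) in 6 5C samples and 256 and 274 CPM in 2 DMSO samples, a log2 difference of −0.21 ± 0.20 (adjusted p = 0.529). The 5C effect on *Etv5* differed between the 2 predicted classes by 3.57 ± 0.50 on the log2 scale (adjusted p = 1.86e-05) and that on *Foxo1* by −1.75 ± 0.31 (adjusted p = 0.000328), in a test of the interaction that was not among the main designs and called 9.75% of genes. The 2 classes came from different DMSO samples, so class and DMSO sample cannot be told apart in it. The 6 5C samples gave cells of both classes and were not paired. In RPG3-predicted cells 4 of the 8 tested genes were higher with 5C, where 6.36% of all genes were higher and 9.23% lower (15.6% in all), with a median of 1.46 against 0.07. *Foxo1* measured 34.8 to 74.1 CPM against 24.9 and 18.7 CPM (log2 1.40 ± 0.36, adjusted p = 0.014), *Taf4b* 19.8 to 50.0 CPM against 11.8 and 12.6 CPM (1.49 ± 0.47, adjusted p = 0.0398), and *Id4* 9.46 to 26.6 CPM against 5.54 and 4.11 CPM (1.88 ± 0.60, adjusted p = 0.0428). The groups did not overlap in these 3 genes, and the share of all genes that separated so was not counted. The calls of *Taf4b* and *Id4* were lost without a filter on low counts (adjusted p = 0.0506 and 0.0628). *Bcl6b*, not called (adjusted p = 0.0852), was called with DESeq2 (1.88, adjusted p = 0.018). In the lists, 2 of 7 other GDNF-regulated genes rose in these cells (*Ccnd2* by 2.99 ± 0.65 and *Etv4* by 1.47 ± 0.30). Among genes of undifferentiated spermatogonia *Upp1* fell by 2.97 ± 0.33 and *Sall4* rose by 0.83 ± 0.19. Of 16 kinases and adaptors *Mapk3* alone was called (1.32 ± 0.34), and of 3 GDNF family genes none was with edgeR.

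*Lhx1* had 84 UMIs of 14123342 with 5C and 1 of 10943324 with DMSO in RPG3-predicted cells, 65.1-fold higher in the pooled counts with a 95% counting interval of 11.4 to 2601 (edgeR adjusted p = 0.0196). *Gfra1* and *Nanos2* were too low to be tested there, with 22 against 2 and 11 against 1 UMIs, ratios of 8.52 (2.095 to 74.8) and 8.52 (1.24 to 367). Without DMSO sample 1 or without DMSO sample 2, none of the 8 was called, the remaining sample being taken to vary like the others. The 6 pluripotency markers summed to 1818 to 2694 CPM with 5C and 3384 to 3412 CPM with DMSO in these cells, 5 germ cell markers to 222 to 541 and 129 to 183 CPM, and 5 markers of differentiating spermatogonia to 130 to 187 and 78.0 to 95.01 CPM. The part of these markers in the differences was not tested.

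Over all cells, *Bcl6b*, *Lhx1* and *Id4* were called higher with 5C, by 2.24 ± 0.34 (adjusted p = 0.00125), 3.80 ± 0.46 (adjusted p = 0.00035) and 1.57 ± 0.28 (adjusted p = 0.00321) on the log2 scale, and none was lower, where 7.52% and 7.31% of all genes were called (14.8% in all). *Etv5* ran from 161 to 280 CPM in the 8 5C samples and measured 293, 309, 36.4, 3.66 and 5.31 CPM in DMSO samples 1 to 5, a log2 difference of 0.67 ± 0.78 (adjusted p = 0.592). The 2 highest values were those of the DMSO samples made up mostly of RPG3 cells.

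**Figure D5:**
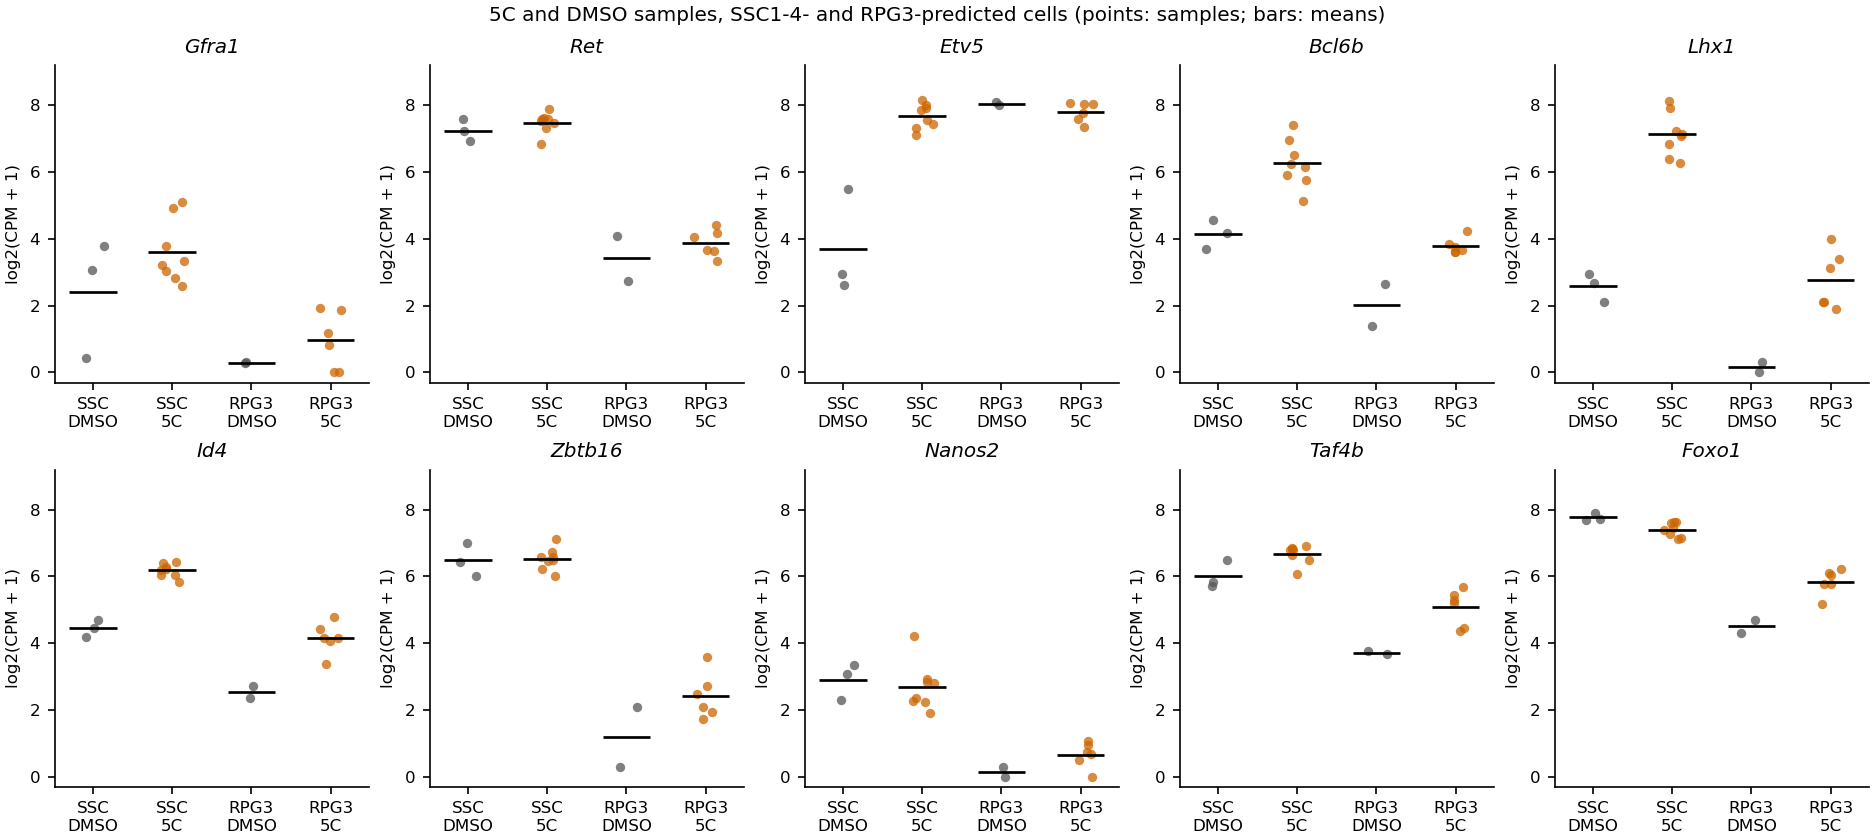
Level of each gene in log2(CPM + 1) per sample (points, with bars for means) in SSC1-4-predicted cells (SSC) and RPG3-predicted cells (RPG3) treated with DMSO (grey) or 5C (orange). *Etv5*, *Bcl6b*, *Lhx1* and *Id4* are separated by treatment in SSC cells, *Etv5* is high under both treatments in RPG3 cells, and *Ret* and *Zbtb16* lie higher in SSC cells than in RPG3 cells under both treatments.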

How the data were processed

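Single-cell RNA was measured in 46 libraries of untreated culture, in 3 libraries of pluripotent lines, and in 8 5C and 5 DMSO samples. The authors split reads by barcode, extracted UMIs with UMI-tools, aligned to mm10 with STAR 2.7.2b, counted with featureCounts 2.0.0 and deposited UMI counts per gene and cell; cluster names came from their deposited metadata, and predicted classes of the 5C and DMSO cells from their published cell table. The mitochondrial percent per cell was used as deposited in the authors' metadata. The strand setting is not given in the sources used here. The members and gene lists were chosen by name with earlier results of these data known, and no list count is independent evidence. For the named genes, the 10 members were all described, and from each list the called gene with the largest change in each direction per RPG comparison, with further genes of these lists chosen after their values were seen. Of the 3 genes most like each member over clusters, the first is given.

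Counts were summed per library and class (at least 5 cells) and tested with edgeR 4.0.16 in R 4.3.3 (trimmed mean of M values, filterByExpr, quasi-likelihood F test, Benjamini-Hochberg adjustment over all genes tested). One fit held all 9 classes, another the 4 SSC clusters, and 5C was compared with DMSO over the 15426 genes in both tables. Depth ranged from 3888311 to 34609591 UMIs per library, and intervals cover counting error only. Numbers shared by 5C and DMSO samples did not pair them, as their deviations correlated from -0.46 to 0.36 over all cells; classes from the same library were paired by library in a block. Alternatives were DESeq2 1.42.0, no filter, other cell minimums, batch terms, single batches, the library block and leaving out each replicate. The edgeR fit was also run on simulated counts, and no result given here rests on that run. Motifs were searched in RefSeq promoters of GRCm38.p6.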

Additional observations from a re-analysis of the deposited data

Results flagged for a closer look

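In 10 of 80 groups of 4 to 10 samples, 1 sample stood apart from the others by Dixon's criterion, where chance gives about 1 in 20. *Lhx1* was 52.2 CPM in the RPG3 cells of day 20 replicate 8, against 1.72 to 9.87 CPM in the other 7 libraries. *Gfra1* was 8.38 CPM in the RPG3 cells of day 23 replicate 2, against 0.502 to 4.04 CPM. *Nanos2* was 4.22 CPM in the RPG3 cells of day 12 replicate 2, against 0 to 1.76 CPM. *Foxo1* was 136 CPM in the RPG1 cells of day 18 replicate 3, against 69.4 to 94.3 CPM.

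In the fibroblast class, day 10 replicate 1 was high for both *Lhx1*, at 116 CPM against 24.8 to 44.8 CPM, and *Taf4b*, at 92.5 CPM against 54.4 to 62.9 CPM. Among the 5C samples, sample 6 was high for *Nanos2* in SSC1-4-predicted cells, at 17.7 CPM against 2.72 to 6.55 CPM, for *Nanos2* over all cells, at 15.2 CPM against 1.28 to 7.36 CPM, and for *Bcl6b* in RPG3-predicted cells, at 17.9 CPM against 11.2 to 13.4 CPM. *Zbtb16* was 11.03 CPM in the RPG3-predicted cells of 5C sample 3, against 2.35 to 5.58 CPM.

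The effect of 5C differed between SSC1-4-predicted and RPG3-predicted cells for 2 of the 10 genes in an edgeR test of the interaction, where 9.75% of 13698 genes were called: *Etv5* by 3.57 on the log2 scale (adjusted p = 1.86e-05) and *Foxo1* by -1.75 (adjusted p = 0.000328). The 2 classes came from different DMSO samples, so class and DMSO sample cannot be told apart here.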

How the results depend on the processing

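Of the values of single genes recomputed under alternatives, 1552 of 1644 stayed on their side of the threshold, 66 lost and 24 gained a call, and 86 changed sign, 2 of them called values that turned around: with the replicate block (library) in the meiotic class, *Gfra1* went to 0.61 and *Ret* to 0.88. Of 167 counts of called members, 141 stayed within 1.5 times the reported count. Of 350 mean levels 45 moved by more than the SD between libraries or had no SD, and of 220 shares of cells with a UMI 175 lay outside the interval of the thinned share when cells were not thinned. In RPG1 the count of 2 became 0 with sums per batch and day, 1 with the library block, 1 within batch B1 and 0 within batch B2. In the early-pluripotent class the count of 0 became 2 with at least 10 cells per sum, 1 with only the 2 classes in the fit and 1 with the library block. In the meiotic class the count of 2 became 4 with DESeq2, 4 with at least 10 cells, 0 with sums per batch and day, 0 with the library block, 1 within B1 and 0 within B2. In the neural class the count of 3 became 0 with sums per batch and day. In SSC2 the count of 1 became 2 with DESeq2, 2 with the library block and 0 with at least 10 cells, and in SSC3 the count of 6 became 3 with at least 10 cells. In RPG4 against RPG3 the count of 1 ran from 0 to 1 without 1 library. In RPG3-predicted cells the 5C count of 4 became 2 with no filter and ran from 0 to 4 when 1 sample was left out: 0 without DMSO sample 1 or DMSO sample 2, and 2 without 5C sample 1, 7 or 8. Leaving out 1 replicate gave 4 to 5 calls for 5C in SSC1-4-predicted cells, 7 to 9 in RPG2 and 4 to 5 in RPG4, where 1 library then stood alone and was taken to vary like the other classes. The causes were not tested.

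The replicate block by sample number reduced the 5C calls over all cells from 3 to 1, but those numbers do not pair the samples. No paired analysis was possible for RPG4 against SSC1-4, because no library held both classes, for RPG2 against RPG3, because only 1 did, or for 5C in RPG3-predicted cells, because only 1 number was shared.

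Counts over all genes moved more. RPG1 had 923 calls, and 340 with sums per batch and day, 1781 with at least 10 cells, 4 with the library block, 451 within B1 and 35 within B2. RPG2 had 7210, and 3611 with the block and 4515 within B2. RPG3 had 11371, and 7370 with sums per batch and day, 3900 with the block and 4775 within B2. RPG4 had 5543, and 2957 to 3129 without 1 library. The fibroblast class had 1128, and 4 with the block and 689 without day 27 replicate 5. The early-pluripotent class had 258, and from 0 within B2 to 1072 with at least 10 cells, with 690 by DESeq2. The meiotic class had 373, and from 0 with sums per batch and day or within B2 to 1168 with at least 10 cells. The neural class had 2151, and 981 with sums per batch and day, 1218 with only the 2 classes and 563 with the block. Without a filter the SSC clusters had 4688, 2779, 3450 and 3576 calls in place of 3088, 1320, 1910 and 2020. For 5C, all cells had 1928 and 7 with the block, SSC1-4-predicted cells 2604 and 1497 to 1567 without DMSO sample 5 or 4 and 1412 with SSC1-predicted cells only, and RPG3-predicted cells 1775 and 459 to 556 without 1 DMSO sample.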
